A study of Mus musculus with 4 samples.

Results

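Interferon-stimulated genes were followed across 4 sorted fractions of a mouse acute myeloid leukaemia. They were taken from a list of 39 genes by symbol, and the probe set of a gene with the greatest mean signal over the arrays stood for it. A value could be assigned to 36 of the 39, out of 18193 genes on the array. Isg15 and Psme2 were on probe sets that the annotation shares with another gene, and Ifi44 was not matched. The list and the genes set beside it were chosen with earlier results of these data known.

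The leukaemia was made by introducing HoxA9 and Meis1 to bone marrow cells, on the C57BL/6 background, and the marrow came from a transgenic mouse in which a region of the NS (nucleostemin) promoter drives GFP. All 4 fractions therefore carry both introduced genes and the NS-GFP transgene, and no normal marrow or untransformed control was analysed here. Leukaemia cells were sorted by NS-GFP level and by c-Kit, the stem cell factor receptor of immature blood cells, into 4 fractions. Cells without c-Kit gave the c-Kit-NS-GFPlow and c-Kit-NS-GFPmiddle fractions, and cells with c-Kit gave c-Kit+NS-GFPmiddle and c-Kit+NS-GFPhigh. The 2 fractions of the middle gate are here called c-Kit- middle and c-Kit+ middle, and the other two NS-GFPlow and NS-GFPhigh (c-Kit- low and c-Kit+ high in the plots). Values below are given from lowest to highest gate, with c-Kit- before c-Kit+ at the middle gate. The number and age of the mice, and whether cells were pooled, are not given in the sources used here. The reporter reads activity of a promoter region and not the level of nucleostemin itself.

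Type I interferons bind the IFNAR receptor, whose kinases JAK1 and TYK2 activate ISGF3, a complex that holds STAT2 and IRF9 and binds the interferon-stimulated response element (ISRE) of its target genes. Interferon gamma acts through a separate receptor, and its target genes carry gamma-activated sites (GAS). The target genes encode sensors of foreign RNA, enzymes that block viral replication, GTPases of cell-autonomous defence and feedback regulators. Many are also transcribed at a basal level in blood cells, and cells of the myeloid lineage use IRF factors in their differentiation.

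Each fraction was measured on 1 Affymetrix array, so no test across samples can be run and differences are described by size. Signals were quantile normalized, and those at or below the median of all probe sets, a floor of 15.3, were set to it. A difference was counted from 2-fold upwards, and a fold against a fraction at the floor is a lower bound. The only repeat measurement is a further probe set of the same gene, which gave an SD of 0.48 for a log2 ratio between the ends of the sort, 0.37 between the c-Kit- fractions, 0.37 between the fractions of the middle gate and 0.30 between the c-Kit+ fractions. Kit lay at the floor in NS-GFPlow, and its normalized signals in the other fractions were 26.4, 690.2 and 479, higher in cells sorted as c-Kit+. Gnl3, which encodes nucleostemin, had signals of 183, 584, 1109 and 1299. In bulk RNA of a sorted fraction, fewer cells that express a gene and less RNA per cell cannot be told apart.

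Most of these genes had their highest signal in NS-GFPlow. Of the 35 members above the floor in at least 1 fraction, 26 (74.3%) were highest there, against 33.8% of all genes above the floor anywhere. Mx2, of the dynamin-like GTPase family, was at the floor in every fraction. The median signal of the members was 115, 86.4, 60.6 and 65.0 in the 4 fractions. That of all genes was between 26.2 and 27.2, a near constancy that quantile normalization largely imposes. The number of members above the floor was 35, 33, 30 and 28 of 36. From one fraction to the next in the order of the sort, 18 of the 35 members were lower at 1 step or more and higher at none, against 17.1% of all genes. The 3 members with the opposite course, which 19.9% of all genes had, were Ifit2, Gbp3 and Irgm1.

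**Figure D1:**
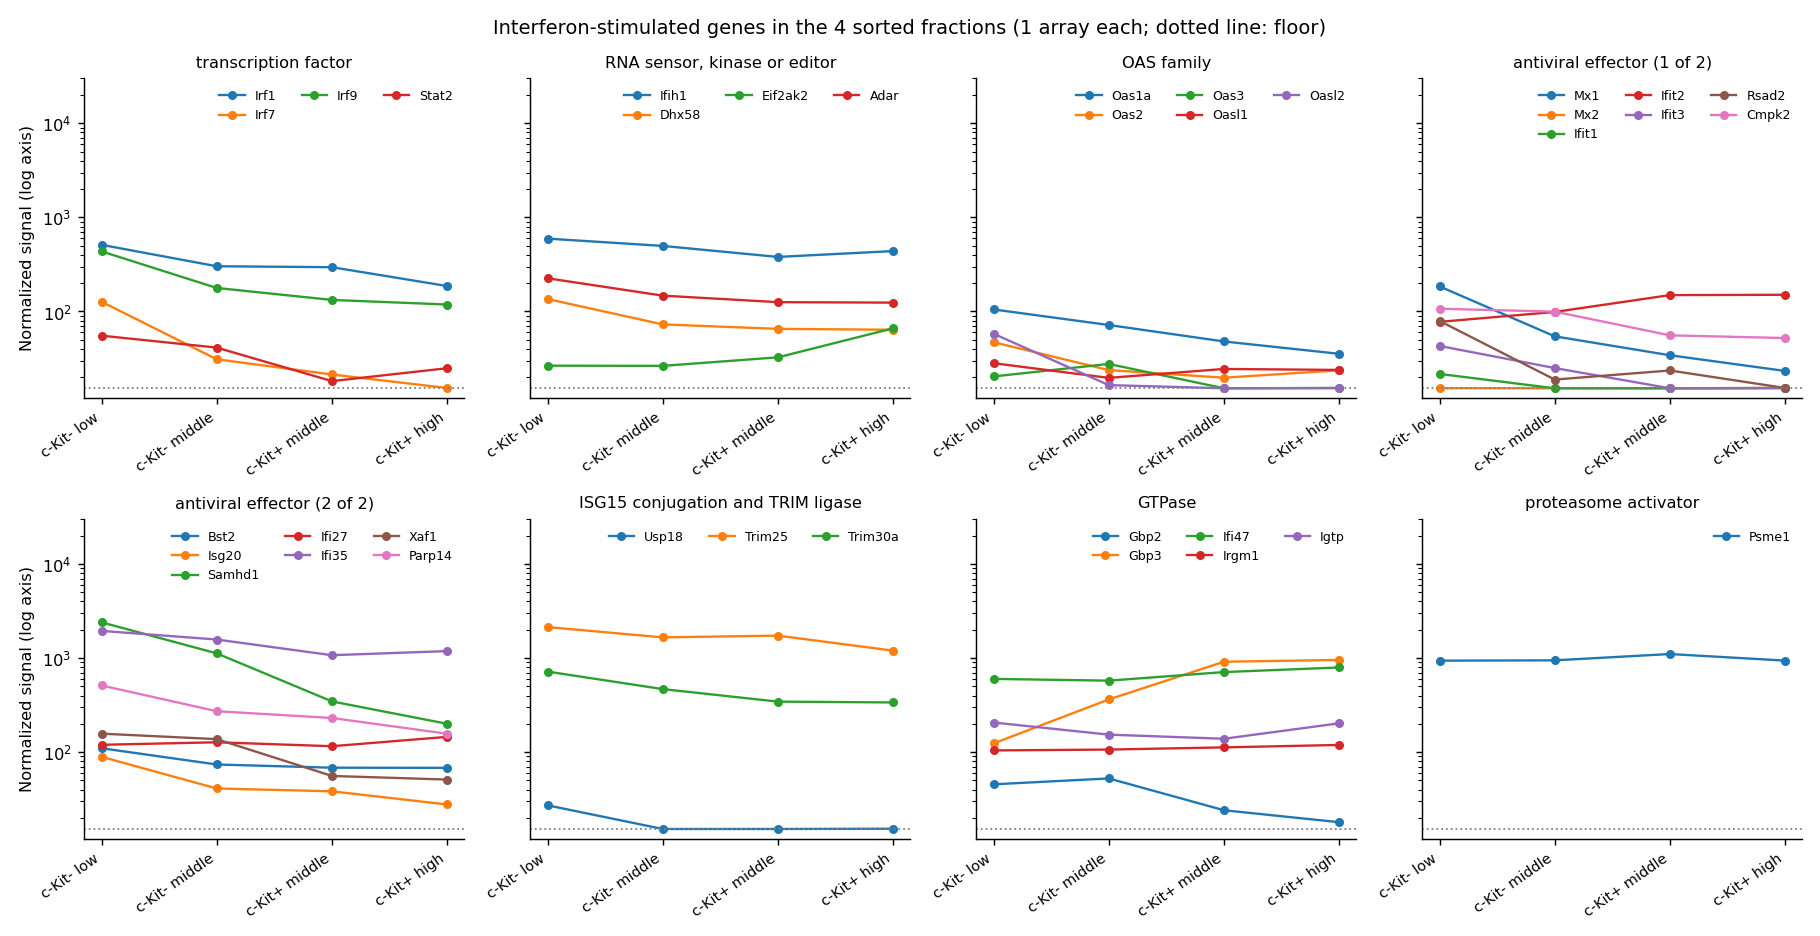
Normalized signal (log axis) of the 36 members with a value in each of the 4 sorted fractions, 1 array per fraction, grouped by role; the dotted line is the floor of 15.3. Most lines are highest at NS-GFPlow, Samhd1 spans 2399 to 200.2, and Gbp3 runs the other way, from 124 to 956.

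Promoters of the members were searched for both elements because these are what interferon-activated factors bind. Windows from 250 bases before to 50 after each gene's start were taken from RefSeq (build GRCm38.p6), where 32 of the 39 listed members matched; Dhx58, Oas2, Mx1, Mx2, Ifi27, Parp14 and Usp18 were not matched. The ISRE core was searched as GAAA, any 2 bases and GAAA, and the GAS as TTCNNNGAA, on both strands. An ISRE core was in 17 of 42 member windows (40.5%), against 3.44% of all 32851 windows, and a GAS in 10 of 42 (23.8%), against 8.30%. The windows below are those of the member with the widest range over the fractions (Samhd1), of the member with the widest range among those lower towards NS-GFPhigh that hold an ISRE core (Rsad2), and of both members at least 2-fold higher in NS-GFPhigh (Gbp3 and Eif2ak2). Gbp2 is added, after its values were seen, as a relative of Gbp3 with the opposite difference. Capitals mark the matches. They lie at chr2:157135047-157135346, minus strand; chr12:26456403-26456702, minus strand; chr3:142559794-142560093, plus strand; chr17:78882523-78882822, minus strand; and chr3:142620413-142620712, plus strand.
Samhd1: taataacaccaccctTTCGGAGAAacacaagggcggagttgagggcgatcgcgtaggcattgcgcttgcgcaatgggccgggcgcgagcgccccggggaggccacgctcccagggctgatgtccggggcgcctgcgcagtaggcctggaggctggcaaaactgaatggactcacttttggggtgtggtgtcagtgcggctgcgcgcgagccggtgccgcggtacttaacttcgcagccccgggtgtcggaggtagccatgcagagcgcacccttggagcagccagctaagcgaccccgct
Rsad2: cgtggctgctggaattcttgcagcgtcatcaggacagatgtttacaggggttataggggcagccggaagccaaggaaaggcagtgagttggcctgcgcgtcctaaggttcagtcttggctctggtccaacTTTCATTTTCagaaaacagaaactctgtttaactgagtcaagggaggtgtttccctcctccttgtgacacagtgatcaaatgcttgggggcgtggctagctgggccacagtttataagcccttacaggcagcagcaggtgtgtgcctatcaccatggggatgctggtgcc
Gbp3: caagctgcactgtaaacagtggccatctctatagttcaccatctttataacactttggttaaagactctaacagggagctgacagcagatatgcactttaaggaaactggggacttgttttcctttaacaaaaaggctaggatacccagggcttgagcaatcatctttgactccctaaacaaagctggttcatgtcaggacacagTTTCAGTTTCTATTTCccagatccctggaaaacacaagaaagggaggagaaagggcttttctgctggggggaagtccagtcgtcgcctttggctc
Eif2ak2: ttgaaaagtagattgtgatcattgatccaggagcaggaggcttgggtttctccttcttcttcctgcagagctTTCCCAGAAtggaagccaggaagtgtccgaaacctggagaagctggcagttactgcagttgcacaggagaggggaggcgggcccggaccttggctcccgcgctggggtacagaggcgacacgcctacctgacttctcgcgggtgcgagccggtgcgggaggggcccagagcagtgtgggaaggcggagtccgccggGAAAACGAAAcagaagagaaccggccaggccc
Gbp2: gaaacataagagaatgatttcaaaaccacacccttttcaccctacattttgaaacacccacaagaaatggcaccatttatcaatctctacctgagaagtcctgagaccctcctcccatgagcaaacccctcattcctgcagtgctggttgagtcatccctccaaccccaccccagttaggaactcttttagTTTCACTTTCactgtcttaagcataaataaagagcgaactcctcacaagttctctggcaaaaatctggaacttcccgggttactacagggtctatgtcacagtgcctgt

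In Samhd1 the capitals are a GAS, TTCGGAGAA, that begins 235 bases before the start, and no ISRE core was matched in this window. Rsad2 holds 1 ISRE core on the reverse strand, 120 bases before the start. Gbp3 holds 2 that overlap, beginning 45 and 39 bases before the start, and Gbp2 holds 1, at 59 bases, all on the reverse strand. Eif2ak2 has a GAS 178 bases before the start and an ISRE core, GAAAACGAAA, that begins 18 bases after it. Among members with a promoter window and a ratio between the ends of the sort, the 15 with an ISRE core had a median log2 ratio of -0.50, with 6 at least 2-fold lower in NS-GFPhigh and 2 higher. The 14 with no match had a median of -1.25, with 8 lower and 0 higher. Over all genes 13.7% were lower and 16.1% higher, with a median of 0.09. The ratios of both sets overlap, and the set with no match has the lower median. Irf7, Oasl2 and Irf9, which also have wide ranges, held neither motif in their windows.

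NS-GFPhigh and NS-GFPlow, the ends of the sort, differ in both sort markers. Of the 35 members measured, 17 were at least 2-fold lower in NS-GFPhigh (4 of them as bounds) and 2 were higher. Over all 11271 genes measured, 13.7% were at least 2-fold lower and 16.1% higher, 29.7% in either direction. Under the authors' own scaling of the arrays these were 17.1% lower and 12.6% higher, and 57.1% of the members were lower. The members' median log2 ratio was -0.99, beside 0.09 for all genes, and 28 of the 35 ratios were below 0. With NS-GFPlow replaced by c-Kit- middle, 6 of 33 members were lower and 2 higher (median -0.41), against 6.53% and 4.90% of all genes (11.4% in either direction). The lower members in that setting were Samhd1, Xaf1, Gbp2, Mx1, Oas1a and Irf7.

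**Figure D2:**
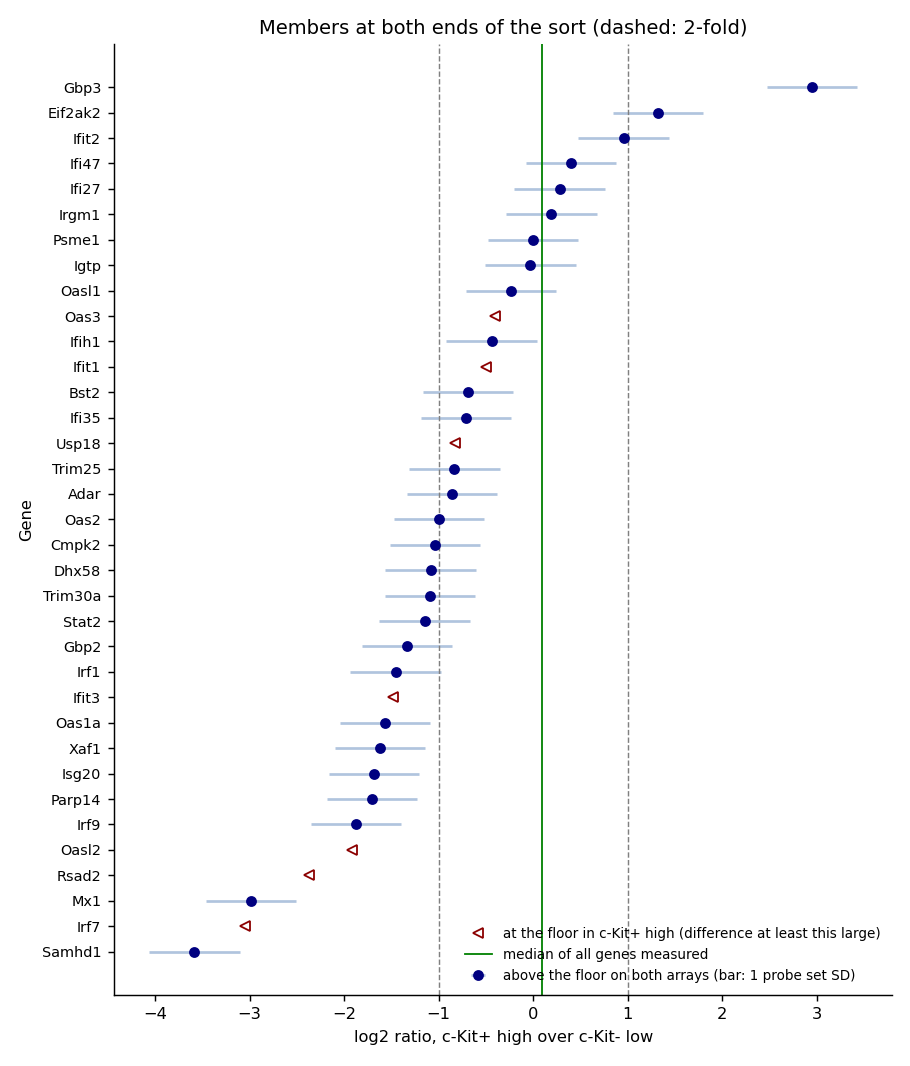
log2 ratio of normalized signal, NS-GFPhigh over NS-GFPlow, for the 35 members measured; filled points have bars of 1 SD between probe sets (0.48), open triangles are bounds with NS-GFPhigh at the floor, dashed lines mark 2-fold and the solid line is the median of all genes (0.09). Samhd1 lies lowest (-3.58) and Gbp3 highest (2.95).

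The 4 transcription factors of the response were all at least 2-fold lower in NS-GFPhigh, against 13.7% of all genes. Irf7, which amplifies type I interferon production, had signals of 127, 31.0 and 21.4 in the first 3 fractions and was at the floor in NS-GFPhigh, at least 8.26-fold below NS-GFPlow. Irf9, the DNA-binding subunit of ISGF3, had 435, 178, 133 and 118, a difference of 3.67-fold (log2 -1.88). In both, NS-GFPlow stood well above the rest. Irf1, induced by both kinds of interferon, had signals of 511, 302, 295 and 186 and was 2.74-fold lower. Stat2, which joins Irf9 in ISGF3, had 55.3, 41.3, 18.2 and 24.9 and was 2.22-fold lower, with its lowest value in c-Kit+ middle. Its second probe set was 1.62-fold lower, with NS-GFPhigh at the floor.

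The sensors, kinase and RNA editor varied less. Ifih1, the MDA5 sensor of long double-stranded RNA, had signals of 595, 497, 379.9 and 438 and stayed within 2-fold. Dhx58, the LGP2 regulator of RNA sensors, had 136, 72.8, 65.3 and 63.9, with NS-GFPlow alone apart (2.12-fold at the ends). The other probe sets of Dhx58 were at the floor in all fractions, so this rests on 1 probe set. Adar, which converts adenosine to inosine in double-stranded RNA, had 225, 147, 126 and 124, a difference of 1.82-fold. Its other probe sets gave 1.73-fold and 2.33-fold in the same direction.

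Eif2ak2 went the other way. It encodes PKR, the double-stranded RNA-activated kinase that blocks translation, and its signals were 26.5, 26.4, 32.5 and 66.2. It was 2.50-fold higher in NS-GFPhigh than in NS-GFPlow, and NS-GFPhigh alone stood apart. Its other probe sets were higher by 1.84-fold and 1.38-fold, under 2-fold. The brighter of them had 19.2, 30.9, 33.8 and 35.3, so there NS-GFPlow was the fraction that stood apart.

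The OAS family is known for making 2'-5' oligoadenylates that activate RNase L, an activity that Oasl1 lacks. Oas1a had signals of 105, 71.8, 48.0 and 35.4, a graded difference of 2.96-fold between the ends. Oasl2 had 58.0 and 16.5 in the c-Kit- fractions and was at the floor in both c-Kit+ fractions, at least 3.78-fold lower. Oas2 had 47.2, 23.8, 19.8 and 23.7 and fell just short of the threshold, at 1.99-fold. Oas3 was above the floor in the c-Kit- fractions only, with 20.4 and 27.7, and Oasl1 ranged from 19.7 to 28.2 with no order along the sort.

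Of the antiviral effectors, 13 were measured between the ends, and 8 were at least 2-fold lower in NS-GFPhigh and 0 higher (median log2 ratio -1.49). Over all genes 13.7% were lower and 16.1% higher. Samhd1, a dNTP triphosphohydrolase that limits reverse transcription, differed most. Its signals were 2399, 1122, 346 and 200.2, so that each fraction lay below the one before and the ends differed by 11.99-fold (log2 -3.58). All 5 of its probe sets were lower in NS-GFPhigh, by 3.03-fold to at least 16.7-fold.

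Mx1, of the dynamin-like GTPase family, had signals of 185, 54.4, 34.2 and 23.3 (7.92-fold lower). Rsad2, the antiviral enzyme viperin, had 79.3, 18.9 and 23.6 and was at the floor in NS-GFPhigh (at least 5.17-fold). A further probe set of Rsad2 was above the floor in NS-GFPlow only, with 25.9. In these genes the NS-GFPlow array accounts for most of the range.

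Parp14, an ADP-ribosyltransferase, had signals of 512, 272, 231 and 157 (3.26-fold lower), and its second probe set was 2.44-fold lower. Isg20, an exonuclease, had 89.2, 41.1, 38.4 and 27.8 (3.21-fold lower). Ifit3, an adaptor of the IFIT complex that binds viral RNA, had 43.0 and 25.025 and was at the floor in both c-Kit+ fractions (at least 2.80-fold lower). Thus the first array was again the highest for all 3.

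Xaf1, an interferon-induced factor linked to apoptosis, and Cmpk2, a mitochondrial nucleotide kinase, divided the fractions by c-Kit instead. Xaf1 had signals of 157 and 138 in the c-Kit- fractions and 55.9 and 51.1 in the c-Kit+ fractions (3.08-fold lower at the ends). Its second probe set lay at the floor in NS-GFPlow and at 20.5 in NS-GFPhigh and so had the opposite sign. Cmpk2 had 107 and 99.55 against 55.7 and 52.1 (2.05-fold lower), while its second probe set was near the floor throughout, with at most 18.2.

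Ifit2, Ifi35, Bst2 and Ifi27 stayed within 2-fold between the ends. Ifit2, which binds viral RNA, was the highest of them relative to NS-GFPlow, with signals of 77.5, 98.8, 149 and 150.4 (1.94-fold higher). Ifi35 (1.64-fold lower) and Bst2, the tether of budding virions (1.62-fold lower), were lower by less than 2-fold, and Ifi27 was 1.21-fold higher. Ifit1 was above the floor in NS-GFPlow only, with 21.7, so its difference is known only as at least 1.41-fold.

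**Figure D3:**
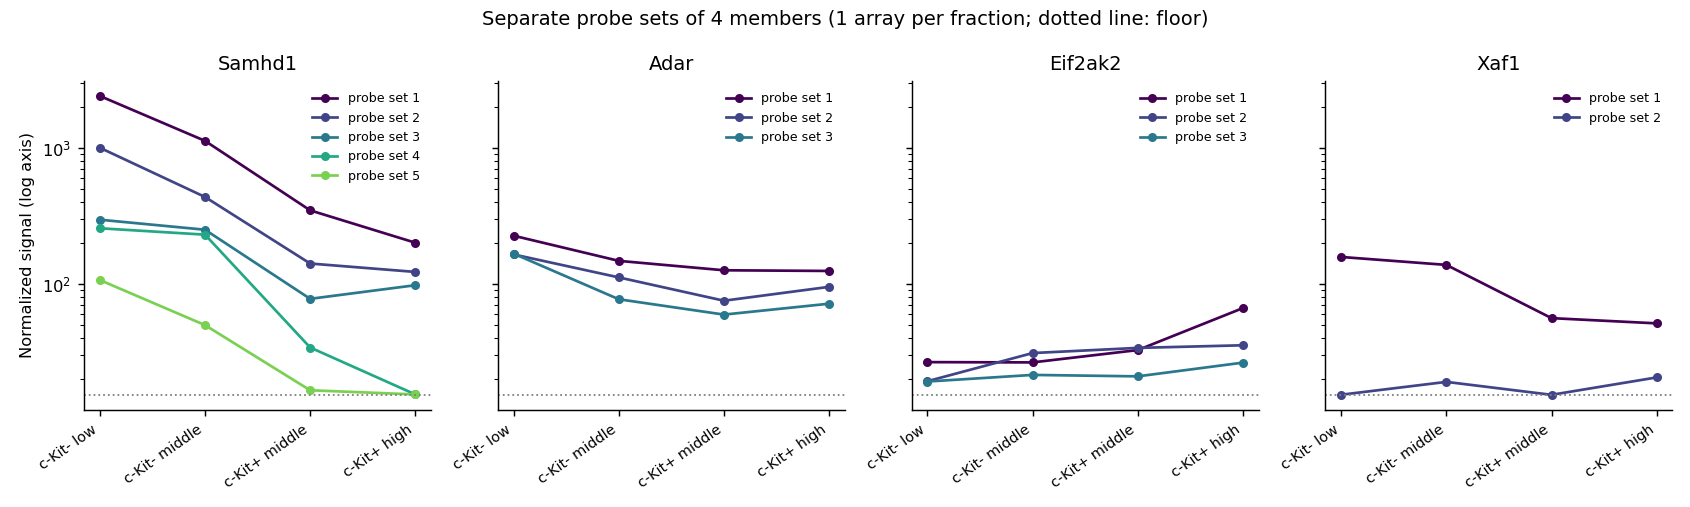
Normalized signal (log axis) of each probe set of Samhd1, Adar, Eif2ak2 and Xaf1 in the 4 fractions, 1 array each, numbered by mean deposited signal; the dotted line is the floor. The 5 Samhd1 probe sets and the 3 of Adar are all lower in NS-GFPhigh than in NS-GFPlow, the 3 of Eif2ak2 all higher, and the 2 of Xaf1 differ in sign.

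Ubiquitin-like conjugation and TRIM ligases were represented by 3 genes. Trim30a, a TRIM protein that restrains inflammatory signalling, had signals of 719, 468, 344 and 338 (2.13-fold lower at the upper end), and its second probe set was 1.48-fold lower. Trim25, the ligase that acts on the RIG-I sensor, had 2136, 1660.25, 1732 and 1199, within 2-fold at 1.78-fold, and its second probe set gave the same 1.78-fold. Its dimmest one was 1.11-fold lower. Usp18, which removes ISG15 and blocks IFNAR signalling, was above the floor in NS-GFPlow alone, with 27.2.

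The GTPase group holds 5 members, which are guanylate-binding proteins and immunity-related GTPases. Of these, 1 was at least 2-fold higher in NS-GFPhigh, 1 was lower and the others were within 2-fold (median log2 ratio 0.19). This is 20% in each direction, near the 16.1% higher and 13.7% lower of all genes. Mx1, a GTPase of another family that was 7.92-fold lower, is counted with the antiviral effectors above. Gbp3, a guanylate-binding protein of cell-autonomous defence, had signals of 124, 363, 914 and 956. It was 7.72-fold higher in NS-GFPhigh than in NS-GFPlow, with both c-Kit+ fractions above both c-Kit- fractions, and it has 1 probe set only. Gbp2, of the same family, had 45.5, 52.6, 24.1 and 18.0 and was 2.53-fold lower. Its second probe set was at least 2.42-fold lower. Ifi47 (1.32-fold higher), Irgm1 (1.14-fold higher) and Igtp (1.02-fold lower), immunity-related GTPases that act on the vacuoles of intracellular pathogens, differed little between the ends. Psme1, a subunit of the proteasome activator PA28, had signals of 939, 946, 1104 and 940.1 and thus did not vary by more than 1.18-fold.

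Members that lie next to each other in the genome did not always move together. Rsad2 and Cmpk2 are adjacent protein-coding genes on chromosome 12 in the RefSeq annotation. Between c-Kit- middle and NS-GFPlow, Rsad2 had a log2 ratio of -2.07 and Cmpk2 of -0.10, whereas across c-Kit status at the middle gate they had 0.32 and -0.84. Ifit2 and Ifit3, adjacent on chromosome 19, had ratios of opposite sign between the ends (0.96 and at most -1.49). Oasl2 and Oasl1, adjacent on chromosome 5, differed in size (at most -1.92 and -0.24). Oas2 and Oas3, also adjacent on chromosome 5, were both lower there (-0.99 and at most -0.41). Gbp7, which like Gbp2 and Gbp3 is on chromosome 3 and belongs to the set of further interferon-induced genes described below, had signals of 140, 310.2, 377 and 268, highest in c-Kit+ middle.

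The single steps of the sort show where the members differed. Within c-Kit- cells, 7 of 35 members were at least 2-fold lower in the middle than in the low NS-GFP gate and 1 was higher, against 5.48% and 6.67% of all genes (12.1% in either direction). The 7 were Rsad2 (4.20-fold), Irf7 (4.09-fold), Oasl2 (3.52-fold), Mx1 (3.39-fold), Irf9 (2.45-fold), Isg20 (2.17-fold) and Samhd1 (2.14-fold), and the gene with a higher signal was Gbp3 (2.93-fold). The members' median log2 ratio was -0.52, beside 0.03 for all genes.

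At the middle gate, the c-Kit+ signal was at least 2-fold below the c-Kit- signal for 4 of 33 members and above it for 1, against 5.30% and 3.57% of all genes (8.87% in either direction). They were Samhd1 (3.24-fold), Xaf1 (2.46-fold), Stat2 (2.27-fold) and Gbp2 (2.18-fold), with Gbp3 2.52-fold higher. The median was -0.23, beside 0.02 for all genes. Samhd1 was the member that passed 2-fold downwards in both of these steps, and Gbp3 the member that passed it upwards in both.

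Within c-Kit+ cells, 0 of 30 members were at least 2-fold lower in the high than in the middle gate and 1 was higher, against 1.02% of all genes in each direction (2.03% in both together). The gene with the higher signal was Eif2ak2, at 2.04-fold. The median was -0.03, beside 0.02 for all genes, and of the 3 steps this one had the smallest differences. Of the 17 members lower in NS-GFPhigh than NS-GFPlow, 11 had their largest drop from NS-GFPlow to c-Kit- middle, 6 from c-Kit- middle to c-Kit+ middle and 0 from c-Kit+ middle to NS-GFPhigh. Over the 1542 genes lower between these ends, the shares were 47.5%, 45.4% and 7.13%. The steps share arrays, so their ratios are not independent of each other.

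**Figure D4:**
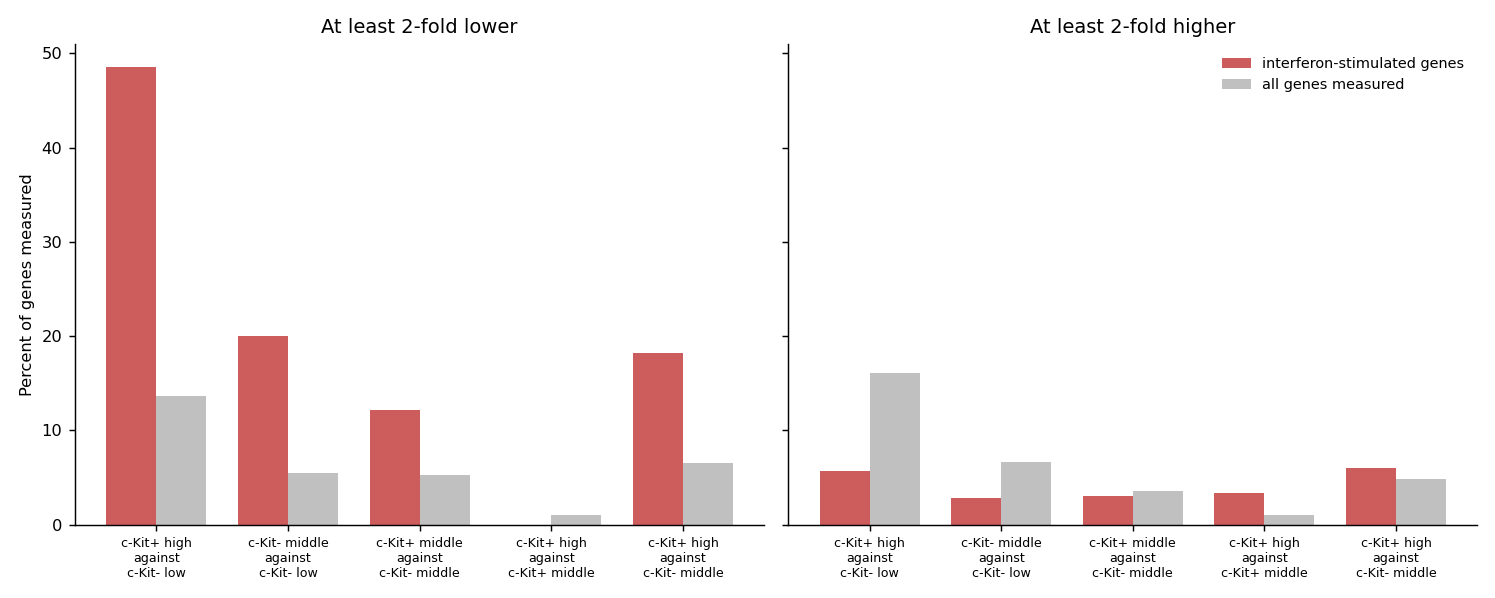
Percent of measured genes at least 2-fold lower (left) and higher (right) in the first-named fraction of each comparison, for the interferon-stimulated genes and for all genes; 1 array per fraction, no error bars. The members' share of lower genes is 48.6% between the ends of the sort, where that of all genes is 13.7%.

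Upstream parts of the pathway were set beside the members, 59 of 64 listed genes having a value. Between the ends of the sort, 22 of the 52 measured were at least 2-fold lower in NS-GFPhigh and 2 were higher (median log2 ratio -0.77), against 13.7% and 16.1% of all genes (median 0.09). Of the 6 interferon genes with a value, Ifnb1, Ifna2, Ifna4, Ifna5 and Ifng were at the floor in all fractions, and Ifna1 was at 15.9 in NS-GFPlow, next to the floor, and at it elsewhere. Transcripts of these 6 genes were thus not detectable above the floor apart from this value, which is a statement on this RNA and not on interferon protein.

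Of 7 receptor and kinase genes, 5 were lower in NS-GFPhigh and 0 higher, against 13.7% and 16.1% of all genes. Tyk2, a kinase of the IFNAR receptor, had signals of 440.2, 193, 115 and 103 (4.26-fold lower). Ifngr2, the signalling chain of the interferon gamma receptor, had 432, 351, 155 and 119.8 (3.60-fold lower). Jak2 was 2.63-fold, Jak1 2.45-fold and Ifnar2 2.35-fold lower, and Ifnar1 (1.97-fold) was just inside the threshold. The ligand-binding chain Ifngr1 had 1870.4, 988, 1665 and 1483, lowest in c-Kit- middle and not graded.

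Of the other IRF genes, Irf5, a factor of macrophage inflammatory responses, was 9.23-fold lower in NS-GFPhigh, with signals of 1416, 512, 161 and 153. Irf4, known from lymphoid and dendritic cells, had 136 and 32.0 in the c-Kit- fractions and was at the floor in both c-Kit+ fractions. Irf2 was 2.35-fold lower. Irf8, which directs monocyte and dendritic cell development, was bright throughout, from 4470 to 2776, and stayed within 2-fold. Irf3 did too (1.80-fold lower).

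The sensors and adaptors included 5 lower and 2 higher genes of 11, against 13.7% lower and 16.1% higher of all genes. The share of higher ones was thus close to that of all genes. Tlr7, the endosomal sensor of single-stranded RNA, had signals of 408, 203 and 26.0 and was at the floor in NS-GFPhigh. Its adaptor Myd88 had 862, 515, 238 and 246 (3.50-fold lower), and Sting1, the adaptor of cytosolic DNA sensing, was 2.75-fold lower. Ikbke, a kinase that activates IRF3 and IRF7, was 2.56-fold lower, and Zbp1, a Z-nucleic acid sensor, at least 2.08-fold. Cgas, the DNA sensor that acts through STING, had 215, 523, 510.4 and 623 and was 2.90-fold higher. Tlr9 was 2.43-fold higher, but its highest signal was 37.9. Of the inhibitors, Socs3 (at least 33.7-fold) and the phosphatase gene Ptpn6 (3.39-fold) were lower, and Socs1 was at the floor throughout.

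Among 24 further interferon-induced genes, 7 were lower in NS-GFPhigh and 0 higher (median log2 ratio -0.31), again against 13.7% and 16.1% of all genes. Ifitm3, a membrane protein that blocks virus entry, had signals of 4669, 1603, 211 and 141 (33.0-fold lower). Ifitm2 was 3.02-fold lower, Ifitm1 at least 9.55-fold, and Epsti1 5.03-fold. Parp12 (at least 5.07-fold), Ifi204 (at least 3.92-fold) and Znfx1 (2.50-fold) were the others. Genes of this set that serve MHC class I antigen presentation stayed within 2-fold. Tap1 was 1.18-fold lower, and the immunoproteasome genes Psmb8 and Psmb9 were 1.27-fold and 1.40-fold higher. The MHC class I light chain B2m was 1.06-fold higher. Psmb10, also of the immunoproteasome, was 1.55-fold lower.

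Marker genes of blood cell types also differed between the fractions. Whether their transcripts came from leukaemia cells or from other cells was not tested. Counts of markers are of those with a value. The summed normalized signal of 7 monocyte and macrophage markers was 16970, 9311, 3679 and 2684, and that of 9 neutrophil markers 11653, 5902, 4415 and 4516. All 7 and all 9 were above the floor in NS-GFPlow, where most members were highest, and in NS-GFPhigh Fcgr1, Mmp9 and Cxcr2 were at the floor. Between the ends 6 of the 9 neutrophil markers were at least 2-fold lower in NS-GFPhigh, against 13.7% of all genes. Camp (521, 298, 447 and 358) and Ngp (3385, 1476, 2134 and 2155) were within 2-fold there and lowest in c-Kit- middle. MHC class II and conventional dendritic cell markers summed to 3350, 517, 182 and 187, with 7, 4, 2 and 2 of 7 above the floor. For 9 B and plasma cell markers the sums were 5820, 853, 215 and 224, with 6, 4, 1 and 3 above the floor. Most of the sum in the c-Kit- fractions was Igha, with 4915 and 609, while Cd79b had 162, 163, 143 and 98.9 over the fractions. Cd79a, Ms4a1 and Ebf1 were at the floor in all fractions. Of the 8 T and NK cell markers 4, 0, 1 and 2 were above the floor (sums of 387, 49.9, 33.3 and 78.6). Ccl5 (219) and Cd2 (68.2) were above it in NS-GFPlow only. Gzma had 25.65 in NS-GFPlow and 15.6 in NS-GFPhigh, while Nkg7 was higher in NS-GFPhigh (42.3) than in NS-GFPlow (36.7). Cd3d, Cd3e, Cd3g and Ncr1 were at the floor throughout. For 4 erythroid markers the sums were 106, 37.8, 33.1 and 25.5, with 3, 1, 1 and 1 above the floor and Hba-a1 at the floor throughout.

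Plasmacytoid dendritic cells are a strong source of type I interferon. Of their 5 markers, Ccr9 and Ly6d were at the floor in all fractions, and Siglech had a signal of 20.1 in NS-GFPlow and was at the floor elsewhere. Tcf4 had 1200, 1135, 596 and 523, a difference of 2.29-fold between the ends. The sum of the 5, mostly Irf8, was 5694, 4966, 3672 and 3312. In the opposite direction, 6 progenitor markers (Kit, Cd34, Mpo, Elane, Myb and Ms4a3) summed to 1907, 3793, 17251 and 16702, with Kit at the floor in NS-GFPlow. Mpo was the largest part of the sum in NS-GFPhigh, with 7309. Between the ends 5 of the 6 were at least 2-fold higher in NS-GFPhigh, against 16.1% of all genes, and Cd34 was 1.69-fold higher. For Actb, the control probe sets at the 3' end read above those at the 5' end by a ratio of 2.50, 3.28, 3.98 and 4.70, whereas for Gapdh it was 3.37, 3.91, 3.10 and 3.41. The part of cell type and of RNA quality in the members' differences was not tested.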

How the data were processed

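RNA of 4 sorted leukaemia fractions, 1 array each, was extracted with TRIzol and hybridised as biotinylated cRNA, per the labels' protocols. GCOS 1.2, MAS5 and R 3.0.2 are named, per the submitters' processing notes, without their roles. The main deposited table gives, as a linear intensity of the MAS5 kind, the signal of 45101 probe sets. A second table deposited by the authors covers 17419 probe sets on a log2 scale, its values being equal to the log2 signals of the first plus 1 constant per array (0.42, 0.65, 0.49 and 0.44), and was used as an alternative. Trimmed means of the arrays differed by 21.5%, so non-control probe sets (45037) were quantile normalized, floored at the 50th percentile (15.3) and taken to log2 (Python 3.11.15, pandas 2.3.3, numpy 2.4.6). Of these, 34945 have 1 gene in the platform annotation, 932 several and 9160 none listed; 34741 were named by gene ID from the RefSeq annotation and 204 kept the platform's symbol. Rigi is listed as Ddx58 in these tables.

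A comparison omits genes at the floor on both its arrays. Members at least 2-fold different in any of the 4 comparisons (19) are given with all their signals, and others by fold or range. With 1 array per fraction no test was run, and the number of arrays limits the precision. Members, lists and rules were chosen with earlier results of these data known. The calculation was tested on simulated data. Alternatives were the authors' scaling, the second table, 3 other floors, other choices of probe set, other thresholds, NS-GFPlow replaced by c-Kit- middle, and a stricter motif.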

Additional observations from a re-analysis of the deposited data

How the results depend on the processing

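With 1 array per fraction, the alternatives show how far values depend on processing and not how far they would repeat. Of 225 ratios of members past 2-fold recomputed under the alternatives, 224 kept their sign and 176 moved by less than 1 SD between probe sets, while 48 moved by more. These ratios were chosen for their size, and some settings cannot alter a gene with 1 probe set or one well above the floor. The exception was Xaf1 between the ends of the sort, 0.42 with its second brightest probe set. Members near the floor limit every count, since 8 of 36 lay at it in NS-GFPhigh. No paired analysis was possible with 1 array per fraction.

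Between the ends of the sort (17 lower, 2 higher, median -0.99), the members lower were 11 of 23 in the second deposited table. They were 5 of 23 with a 75th-percentile floor and 3 of 13 with the second brightest probe set. Without probe sets marked _x, _s or _a they were 9 of 24, and with NS-GFPlow replaced by c-Kit- middle 6 of 33. In this order, 15.8%, 12.9%, 14.2%, 14.1% and 6.53% of all genes were lower. At a threshold of 3-fold 9 were lower and 1 higher, against 6.85% of all genes in each direction. The number higher was also 1 with a 75th-percentile floor, with the mean of probe sets and without the marked probe sets. It was 0 with the second brightest probe set. Of all genes, 14.1%, 12.2%, 15.8% and 16.1% were higher in these settings. The median was -0.44 with a 75th-percentile floor and -0.41 with NS-GFPlow replaced by c-Kit- middle. The authors' scaling gave a median over all genes of -0.08, against 0.09.

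For c-Kit- middle against NS-GFPlow (7 of 35 lower, 1 higher), 13 of 35 were lower under the authors' scaling (all-gene median -0.27). The number lower was 3 of 23 in the second table and 2 of 23 with a 75th-percentile floor. It was 2 of 13 with the second brightest probe set and 2 of 24 without the marked probe sets, with 0 higher in both. Of all genes, 11.51%, 4.89%, 4.02%, 5.57% and 5.74% were lower there, against 5.48%. Across c-Kit status at the middle gate (4 lower, 1 higher), 7 of 36 (19.4%) were lower with a 25th-percentile floor and with no floor. Of all genes, 10.8% and 15.2% were lower there, against 5.30%. The number lower was 1 with a 75th-percentile floor, with the mean of probe sets and with the second brightest probe set. These were 5.56%, 3.03% and 8.33% of members, beside 4.04%, 3.85% and 4.69% of all genes. The number higher was 2 with no floor, and 0 with the second brightest probe set and without the marked probe sets. Of all genes, 14.3%, 4.62% and 3.79% were higher there. For NS-GFPhigh against c-Kit+ middle (0 lower, 1 higher), the number higher was 0 under the authors' scaling, in the second table, with a 75th-percentile floor, with the mean of probe sets and with the second brightest probe set. The number lower was 1 of 35 with a 25th-percentile floor and 2 of 36 with no floor. It was 1 of 11 with the second brightest probe set and 1 of 20 without the marked probe sets. Of all genes, 7.31%, 12.2%, 1.86% and 1.07% were lower there.

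Members highest in NS-GFPlow numbered 26 of 35, and 16 of 23 in the second table, 17 of 23 with a 75th-percentile floor, 8 of 13 with the second brightest probe set and 17 of 24 without the marked probe sets. With the stricter form GAAAC, any base and GAAA, 10 of 32 members held the ISRE core, against 16. Several of these settings measure fewer members, and beyond that the cause was not tested.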
